A study of Homo sapiens with 4 samples.

Results

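Of 8 transcription factor genes that drive the noradrenergic state of neuroblastoma, 5 were counted in every library of these cells (HAND2, TBX2, GATA2, ISL1 and GATA3). HAND1 had 1 count in 1 library, and PHOX2A and INSM1 had 0 counts in all 4. The 8 genes were taken by name from a table of 28058 gene symbols, and all 8 are listed in it. The data are poly(A) RNA sequencing of 4 libraries labelled as SH-SY5Y, an established human neuroblastoma cell line, grown in serum-containing medium. The 2 control libraries came from cells without shock wave treatment (SWT). The 2 SWT libraries came from cells that, per the sample protocols, received 300 pressure pulses of 0.08 mJ/mm2 at 3 Hz. Flasks stood in a bath at 37 °C, 7 cm from the applicator, and RNA was taken 6 h later. The design text of the series speaks of exosomes instead, and the labels do not tie the replicates to separate cultures. The p-values below therefore cover the spread of these 4 libraries alone, and that spread may be technical.

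Sympathetic neurons and most neuroblastoma cells hold their identity through a small set of transcription factors that bind together at large enhancers, including those of their own genes. HAND2 and its close relative HAND1 are basic helix-loop-helix factors that pair with E proteins. GATA2 and GATA3 are zinc finger factors that bind the GATA motif, TBX2 is a T-box repressor, ISL1 is a LIM homeodomain factor and PHOX2A is a paired homeodomain factor that activates genes of noradrenaline synthesis. INSM1 is a zinc finger repressor of neuroendocrine cells that recruits the RCOR1 and KDM1A complex. Several of these factors also act outside the nervous system, HAND2, HAND1, TBX2 and ISL1 in the developing heart among them.

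Library totals ran from 9888263 to 11686808 counts, and the limit that 3 counts set on a 0 was 0.257 to 0.303 CPM. CPM are counts scaled to library size, here to totals adjusted by TMM, a trimmed mean scaling between libraries. The label was checked on marker lists that were chosen with earlier results of these data known. Of 17 mesenchymal markers 14 reached 10 CPM in each of the 4 libraries, against 0 of 11 noradrenergic markers. On the noradrenergic list ISL1, GATA3, GAP43, CHGB and STMN2 were counted in every library at lower levels. Their means were 5.8, 2.73, 2.55, 1.61 and 1.61 CPM. That list holds 4 of the 8 factors; of its other 7 genes 0 reached 10 CPM, and TH, DBH and CHGA were at 0 throughout, though 5 neighbours of CHGA are at 0 as well. HAND2, TBX2 and GATA2, which did reach 10 CPM, are not on it. Nor are NEFL, CYB561 and SCG2, products of noradrenergic cells at a mean of 70.0, 43.8 and 43.6 CPM. The mesenchymal markers VIM, COL1A1 and FN1 stood at means of 3251, 3022 and 1812 CPM. COL1A2 and SNAI2 stood at only 2.99 and 3.23 CPM, and MEOX2 had 0 counts. The cell line label names SH-SY5Y and the tissue label names neurons. The markers of the noradrenergic list go against both labels, while the neurofilament gene NEFL does not. Whether the cells were SH-SY5Y was not tested. Heart muscle transcripts stood high in control replicate 2: 21 heart muscle genes summed to 388 CPM there and to 9.38 in the other control, and SWT replicates 1 and 2 held 42.1 and 11.8 CPM. Bulk RNA cannot tell fewer cells of a type from less RNA per cell.

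The start regions of 4 factors are shown because they set 2 counted genes beside 2 at or near 0. Sequences are from RefSeq on GRCh38.p14, which lists start regions for 6 of the 8 factors (TBX2 and INSM1 have no entry in the table used). Capitals mark E-boxes (CANNTG, the motif class of HAND dimers, the same on both strands) and GATA cores (GATA, or TATC where the core lies on the other strand). The antisense RNA gene HAND2-AS1 has 2 listed starts. One lies 228 bases from that of HAND2 and runs in the opposite direction, and the region before the other (chr4:173528350-173528599) lies within HAND2. The 228 bases between HAND2 and the nearer start are chr4:173530230-173530457, written on the HAND2 strand (minus). The other entries are the 250 bases before the start of ISL1 (chr5:51383198-51383447, plus strand), HAND1 (chr5:154478228-154478477, minus strand) and PHOX2A (chr11:72244177-72244426, minus strand). The gene positions given further on are from GENCODE and differ from these starts. By them the PHOX2A region lies wholly within its gene, and the ISL1 and HAND1 regions reach into theirs.
HAND2 to HAND2-AS1: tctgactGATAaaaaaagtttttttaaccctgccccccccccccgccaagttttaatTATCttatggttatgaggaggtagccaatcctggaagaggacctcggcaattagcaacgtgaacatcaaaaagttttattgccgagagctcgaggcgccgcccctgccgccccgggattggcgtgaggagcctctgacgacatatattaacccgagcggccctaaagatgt
ISL1: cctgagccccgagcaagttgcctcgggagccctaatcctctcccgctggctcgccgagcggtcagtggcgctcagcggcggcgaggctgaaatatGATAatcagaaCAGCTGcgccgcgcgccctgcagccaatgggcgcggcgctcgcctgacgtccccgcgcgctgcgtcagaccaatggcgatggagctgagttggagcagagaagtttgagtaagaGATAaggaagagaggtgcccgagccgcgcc
HAND1: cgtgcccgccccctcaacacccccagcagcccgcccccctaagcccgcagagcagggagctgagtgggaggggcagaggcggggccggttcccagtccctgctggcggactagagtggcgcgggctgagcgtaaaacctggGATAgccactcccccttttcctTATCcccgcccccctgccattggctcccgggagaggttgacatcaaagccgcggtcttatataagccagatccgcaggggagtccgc
PHOX2A: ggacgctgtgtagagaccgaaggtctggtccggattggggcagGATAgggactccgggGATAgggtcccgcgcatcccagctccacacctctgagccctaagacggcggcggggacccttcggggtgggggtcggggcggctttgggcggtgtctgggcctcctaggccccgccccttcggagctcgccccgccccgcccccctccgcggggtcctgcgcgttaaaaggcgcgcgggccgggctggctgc

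The stretch shared by HAND2 and HAND2-AS1 held 2 GATA cores and 0 E-boxes. The full 250 bases before the HAND2 start (chr4:173530230-173530479) held 3 GATA cores and 1 E-box. ISL1 held 2 GATA cores and 1 E-box, and HAND1 and PHOX2A, at or near 0 counts, each held 2 GATA cores and 0 E-boxes. Of all 35116 start regions of the same length, 45.6% held at least 1 GATA core, 19.3% at least 2 and 7.41% at least 3, and 61.8% held an E-box. The table gives 2 starts for GATA2. The region before the distal one (chr3:128493202-128493451) held 0 E-boxes and the other (chr3:128488531-128488780) 3, and both held 0 GATA cores. CpG pairs numbered 13 for HAND2, 27 for ISL1, 16 for HAND1 and 26 for PHOX2A, against a median of 11 over all regions. The 6 listed start regions of GATA3, a counted factor, held 4 to 30 CpG pairs, 0 to 2 E-boxes and 0 or 1 GATA core. These matches describe letters and are not binding sites.

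**Figure D1:**
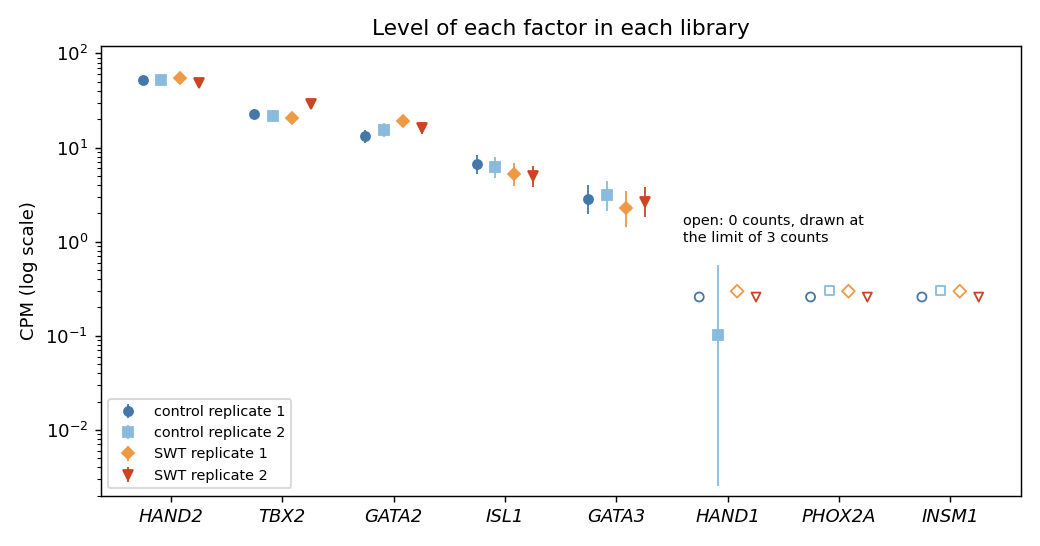
CPM on a log axis of each factor in each of the 4 libraries, with exact Poisson 95% intervals, which cover counting error only; open symbols are counts of 0, drawn at the limit that 3 counts set. HAND2 stands at 48.9 to 54.2 CPM in every library, while PHOX2A and INSM1 are open in all 4.

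HAND2 (chromosome 4, 173524969 to 173530229 on GRCh38, as are all gene positions given) carried most of the counts of the group. Its level was 52.3 and 52.7 CPM in control replicates 1 and 2, and 54.2 and 48.9 CPM in SWT replicates 1 and 2. The libraries of the groups overlapped, with SWT at both the top and the bottom. Controls averaged 52.5 ± 0.280 CPM and SWT libraries 51.5 ± 3.72 CPM (SD, n = 2 each). The log2 fold change was -0.03 (SE 0.08, edgeR adjusted p = 0.979), with a 95% interval of -0.19 to 0.13, the narrowest of the tested factors. It was 0.045 without SWT replicate 2, and 0.017 with all libraries and the length and GC trend removed, so its sign is not settled.

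HAND2 made up 53.5% and 53.1% of the summed CPM of the 8 factors in control replicates 1 and 2, and 53.4% and 48.1% in SWT replicates 1 and 2. The sum itself ran from 97.8 to 101.6 CPM over the libraries. The lower share in SWT replicate 2 went with a higher share of TBX2 there, 28.6% against 20.4% to 23.3% in the other libraries.

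HAND1 (chromosome 5, 154474972 to 154478264), the other HAND gene, had a single count, in control replicate 2, and 0 in the other libraries. That library also held the highest heart muscle signal. The part of those transcripts in the single count was not tested. The upper exact Poisson bounds for HAND1 ran from 0.316 to 0.563 CPM, a small fraction of the level of HAND2. These bounds cover counting error only, and not reads that may have been lost in alignment or counting. No fold is given, because both groups lie under the limit of 3 counts.

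GATA2 (chromosome 3, 128479427 to 128493185) was the factor with the smallest p-value. It stood at 13.2 and 15.4 CPM in control replicates 1 and 2, and at 19.0 and 16.0 CPM in SWT replicates 1 and 2. Both SWT libraries lay above both controls, though SWT replicate 2 exceeded control replicate 2 by little and their Poisson intervals (13.8 to 18.5 and 13.0 to 18.0 CPM) overlapped. Controls averaged 14.3 ± 1.54 CPM and SWT libraries 17.5 ± 2.12 CPM (SD, n = 2 each). The log2 fold change was 0.30 (SE 0.13, 95% interval 0.02 to 0.58, edgeR adjusted p = 0.843). GATA2 did not pass the test, and its value was 0.18 without control replicate 1 and 0.17 without SWT replicate 1.

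GATA3 (chromosome 10, 8045378 to 8075203), which is needed for sympathetic development, was counted at a low level. It stood at 2.84 and 3.13 CPM in the controls and at 2.28 and 2.66 CPM in SWT, from 23 to 33 counts per library. Both SWT libraries lay below both controls, but all 4 Poisson intervals overlapped. The log2 fold change was -0.26 (SE 0.26, 95% interval -0.82 to 0.29, edgeR adjusted p = 0.929). It stood at -0.38 without SWT replicate 2 and at -0.16 without SWT replicate 1.

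TBX2 (chromosome 17, 61399896 to 61409466) differed more within the SWT group than between the groups. It stood at 22.8 and 21.8 CPM in control replicates 1 and 2, and at 20.6 and 29.1 CPM in SWT replicates 1 and 2. SWT replicate 2 was the highest and SWT replicate 1 the lowest library, with Poisson intervals of 26.1 to 32.3 and 17.9 to 23.6 CPM that did not overlap. The log2 fold change was 0.16 (SE 0.13, 95% interval -0.12 to 0.44, edgeR adjusted p = 0.912). It turned to -0.11 without SWT replicate 2 and stood at 0.38 without SWT replicate 1.

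ISL1 (chromosome 5, 51383391 to 51394738) was counted at a lower level than HAND2, TBX2 and GATA2. It stood at 6.63 and 6.16 CPM in the controls and at 5.26 and 4.97 CPM in SWT. Both SWT libraries lay below both controls, but all 4 Poisson intervals overlapped (5.23 to 8.28 CPM in control replicate 1, 3.78 to 6.43 in SWT replicate 2). The spread within each group was small beside these intervals. Controls averaged 6.40 ± 0.330 CPM and SWT libraries 5.12 ± 0.200 CPM (SD, n = 2 each). The log2 fold change was -0.33 (SE 0.18, 95% interval -0.71 to 0.06, edgeR adjusted p = 0.867). ISL1 did not pass the test either. Each value rests on 53 to 77 counts.

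PHOX2A (chromosome 11, 72239077 to 72245664) and INSM1 (chromosome 20, 20368121 to 20370949) had 0 counts in every library. Each 0 allows up to 0.257 to 0.303 CPM by the limit of 3 counts. A 0 in this table need not mean that RNA was absent. Genes that nearly all cells use were also at or near 0, among them the tubulin gene TUBB (0 to 2 counts), the respiratory chain gene NDUFA6 and the proteasome gene PSMB3 (both 0 in all libraries). These 3 were chosen after their values were seen. Neighbouring genes were therefore counted, up to 5 protein-coding genes on each side in RefSeq order.

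Around PHOX2A, 6 of 10 neighbours had at least 10 counts in every library, among them the gene directly before it, INPPL1 (1758 to 2241 counts), and the one directly after it, CLPB (285 to 381). Around INSM1 there were also 6 of 10, with RALGAPA2 directly after it at 193 to 271 counts. CFAP61, directly before INSM1, had at most 1 count, and SLC24A3, NKX2-4 and NKX2-2 had 0. Around HAND1 there were 9 of 10. Reads were thus counted from some neighbours of all 3 genes.

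Noradrenergic genes at 0 differed in how many of their neighbours were counted. ELAVL3 had 8 of 10 neighbours with 10 counts or more and 0 at 0, while DDC had 2 of 10 and 6 at 0. CHGA, the chromogranin gene, had 0 counts, and so did all 5 protein-coding genes on one side of it (ITPK1, MOAP1, TMEM251, GON7 and UBR7), while 4 of 5 on the other side had 10 or more. KLF13, a Kruppel-like factor gene, had 5 of 8 neighbours at 0. TH, the rate-limiting enzyme gene of catecholamine synthesis, had 3 of 10 neighbours with 10 counts or more, CD81 (2313 to 2905 counts) among them, and 4 at 0. DBH, the enzyme gene that makes noradrenaline, had 7 of 10 with counts. The 0 of CHGA and KLF13 cannot be read as absence. That of PHOX2A or DBH can be set against counted neighbours, but neighbours do not cover the gene itself. Counted neighbours thus do not show that a 0 means absence. TUBB had 7 of 10 neighbours at 0 and 2 of 10 with 10 counts or more. The neighbours of NDUFA6 and PSMB3 were not examined. Whether reads of single genes or of runs of genes at 0 were lost in alignment or counting was not tested.

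**Figure D2:**
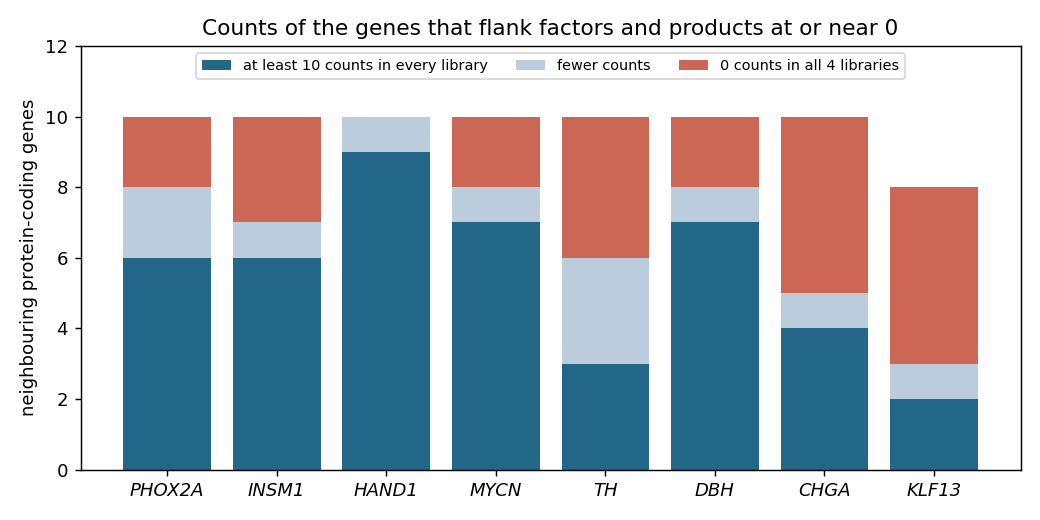
Number of flanking protein-coding genes, up to 5 on each side, by their counts, for factors and noradrenergic genes at or near 0 counts. HAND1 has 9 of 10 neighbours with at least 10 counts in every library, PHOX2A and INSM1 have 6, and CHGA has 5 of 10 at 0.

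Per kilobase of the longest annotated transcript, HAND2 stood highest of the 8 at 18.7 ± 0.804 CPM per kb (SD, n = 4), above 70.5% of tested genes with a known length. GATA2 followed at 4.72 ± 0.720 and TBX2 at 4.52 ± 0.722 CPM per kb. Their ranges over the libraries, 3.91 to 5.66 and 3.95 to 5.57, overlapped, so these 2 cannot be ordered. ISL1 stood lower at 2.34 ± 0.314 CPM per kb and GATA3 at 0.874 ± 0.114 CPM per kb, above 9.2% of tested genes. HAND2 to GATA2 and TBX2, these to ISL1, and ISL1 to GATA3 were steps without overlap of the library ranges. The order assumes that the longest transcript is the one used.

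HAND2, GATA2 and TBX2 each have an antisense RNA gene that was counted beside them. HAND2-AS1 stood at 11.2 ± 0.919 CPM, GATA2-AS1 at 10.9 ± 1.51 CPM (SD, n = 4) and TBX2-AS1 at 1.52 to 2.15 CPM over the libraries. GATA3-AS1 had 0 counts in all 4 libraries, like GATA6-AS1. The share of antisense counts in each pair had overlapping intervals in all 4 libraries. HAND2-AS1 made up 18.0% and 18.4% of the counts of its pair in the controls and 17.6% and 16.8% in SWT, and GATA2-AS1 40.2% and 42.4% in the controls and 39.6% and 40.6% in SWT. TBX2-AS1 made up 6.49% to 8.62%.

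GATA2 and GATA2-AS1 were both lowest in control replicate 1 and highest in SWT replicate 1, while the other two libraries changed places. GATA2-AS1 stood at 8.87, 11.3, 12.5 and 11.0 CPM in control replicates 1 and 2 and SWT replicates 1 and 2. The antisense log2 fold change was 0.22 (edgeR adjusted p = 0.900), beside 0.30 for GATA2 itself. Leaving out control replicate 1 brought the antisense value to 0.048, and leaving out the other control to 0.400. HAND2-AS1 stood at -0.13 (edgeR adjusted p = 0.936) and TBX2-AS1 at 0.09 (0.989). The strand setting of the counting is not given in the sources used here. In GENCODE, 867 of 3601 exon bases of HAND2 (24.1%) are shared with exons of HAND2-AS1, and without strand the reads there cannot be told apart. GATA2 and TBX2 share 0 exon bases with their antisense genes, though the gene bodies overlap.

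**Figure D3:**
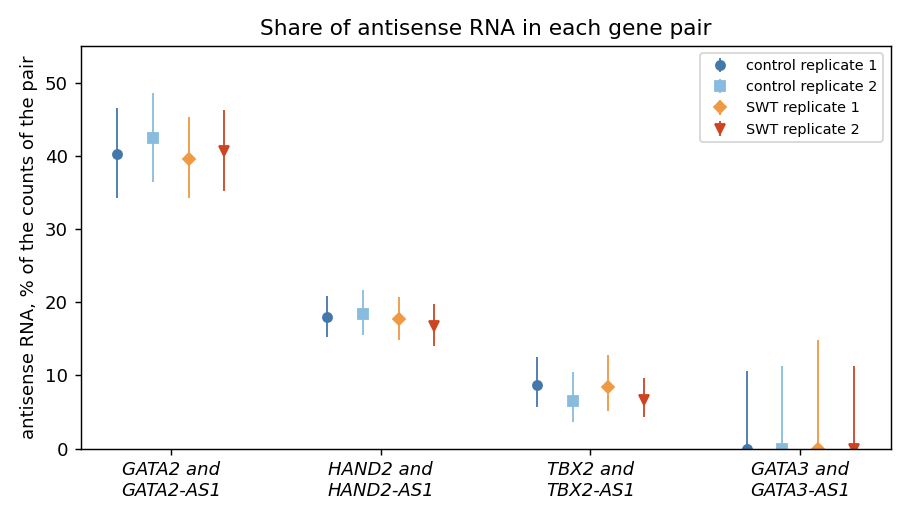
Share of the antisense RNA in the counts of each gene pair, in percent, for each library, with exact Clopper-Pearson 95% intervals. GATA2-AS1 holds 39.6% to 42.4% of its pair in all 4 libraries, and GATA3-AS1 has 0 counts.

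The comparison of SWT with control asks whether treatment was followed by a change in the factors after 6 h. With edgeR's quasi-likelihood test 0 of the 5 tested factors passed. Over all 12399 genes tested, 0.0% were called higher and 0.0% lower. At an unadjusted p under 0.05, 1 of the 5 was higher, GATA2, beside 2.81% of all tested genes, and 0 were lower, beside 2.96%. DESeq2, and limma on the deposited log2 values, also called 0 of the factors. Both SWT libraries lay above both controls for 1 factor, GATA2, beside 17.3% of tested genes, and below both for 2, ISL1 and GATA3, beside 18.0%. With 5 genes these counts are too few to set against those shares.

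The factors did not move in 1 direction. By value GATA2 and TBX2 were higher and HAND2, GATA3 and ISL1 lower, with a median log2 fold change of -0.03 beside -0.001 over all tested genes. The HAND2 interval (-0.19 to 0.13) was the narrowest and those of ISL1 (-0.71 to 0.06) and GATA3 (-0.82 to 0.29) the widest, so the data bound a change of HAND2 more tightly than one of these weakly counted factors.

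**Figure D4:**
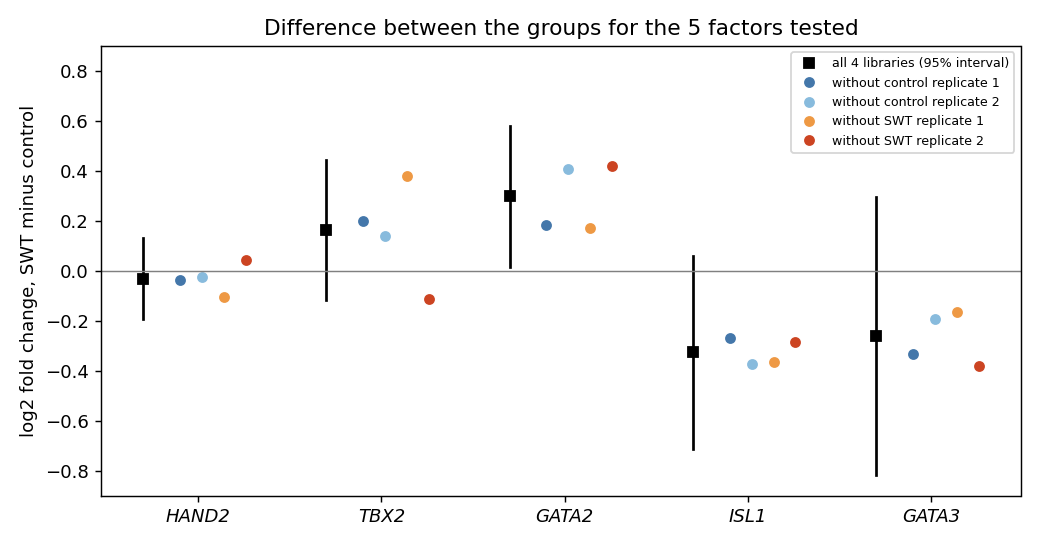
Log2 fold change, SWT minus control, of the 5 tested factors with all libraries (squares, 95% interval) and with each library left out (circles). TBX2 turns from 0.16 to -0.11 without SWT replicate 2, while GATA2 stays above 0 and ISL1 and GATA3 below 0 in these fits.

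Among 18 other factors of the noradrenergic state, 9 were tested and 0 passed, with 3 above 0, 6 below and a median log2 fold change of -0.02. Of the 18, 5 had at least 10 CPM in every library: MEIS2, a homeodomain factor, at 93.5 ± 2.64 CPM, its PBX partner PBX3 at 60.4 ± 2.25, KLF7 at 57.1 ± 2.14, SOX4 at 23.6 ± 1.72 and SATB1 at 11.5 ± 0.810 CPM (SD, n = 4). These genes are also used in many other cell types. Per kb, MEIS2 (19.4) and PBX3 (20.8 CPM per kb) stood close to HAND2. At 0 counts in all libraries were MYCN, TFAP2B, SOX11, ZNF536 and KLF13. MYCN had 7 of 10 neighbours with 10 counts or more and ZNF536 10 of 10, while TFAP2B had 2 of 10. KLF7 had the smallest p-value of the list, at a log2 fold change of 0.09 (edgeR adjusted p = 0.911).

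Among 26 products and targets of noradrenergic cells, 17 were below 1 CPM throughout, 9 of them without a single count. These 9 were TH, DBH and DDC of the catecholamine pathway, the vesicle and membrane transporters SLC18A1, SLC18A2 and SLC6A2, and CHGA, ELAVL3 and DLK1. By contrast the neurofilament gene NEFL stood at 70.0 ± 4.99 CPM, the granule gene CYB561 at 43.8 ± 1.54 and the secretogranin gene SCG2 at 43.6 ± 4.71 CPM (SD, n = 4). Of 8 tested members 0 passed, and NEFL had the smallest p-value at a log2 fold change of -0.11 (edgeR adjusted p = 0.900). HAND2, GATA2 and ISL1 were thus counted in cells where the enzyme gene DBH was not.

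Paralogues of the factors were counted too. Of 26, 7 reached 10 CPM in every library. PRRX1, a paired-related homeodomain gene of mesenchyme, stood at 465 ± 17.2 CPM and TBX18 at 33.4 ± 1.78 CPM. GATA4, known from heart and endoderm, stood at 22.2 ± 1.14 CPM (SD, n = 4), TBX15 at 15.9, the basic helix-loop-helix gene TWIST1 at 14.0, TWIST2 at 11.9 and LHX8 at 10.8 CPM. Per kb, GATA4 (6.51, library range 6.01 to 6.71) stood above GATA2 (3.91 to 5.66), while TWIST1 (7.92 to 8.78) and TWIST2 (7.91 to 9.35) stood below HAND2 at 18.7 CPM per kb. PRRX1 stood at 109 CPM per kb, and PHOX2A, also a paired-class homeodomain gene, had 0 counts. Among those with 0 counts were GATA1, TBX1 and LHX3. Of 13 tested paralogues 0 passed, and the median log2 fold change was -0.06. GATA6 had the smallest p-value at -0.53 (edgeR adjusted p = 0.901), from 11 to 21 counts.

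Of 19 partners and cofactors, 14 reached 10 CPM in every library. E proteins, the dimer partners of HAND2, were all present, with TCF12 at 175 ± 3.62, TCF3 at 145 ± 7.02 and TCF4 at 108 ± 4.03 CPM. The LIM cofactor gene LDB1, which binds ISL1, stood at 92.4 ± 4.97 CPM (SD, n = 4). KDM1A at 177, RCOR1 at 58.1, HDAC1 at 152 and HDAC2 at 233 CPM, partners of INSM1, were counted although INSM1 was not. Of the GATA cofactor genes, ZFPM1 stood at 0.861 to 2.14 CPM, and ZFPM2 and LMO2 had 2 and 3 counts over the 4 libraries, although GATA2 was counted.

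Of 16 tested partners 0 passed, with a median log2 fold change of 0.02. ID3, an inhibitor that takes E proteins away from their partners, stood at 38.0 and 50.5 CPM in control and 50.8 and 56.7 in SWT, a log2 fold change of 0.29 (edgeR adjusted p = 0.838). The ID3 value fell to 0.094 when control replicate 1 was left out and stood at 0.506 when the other control was. Each of these fits keeps a single control, so only its value is given. With each control paired to the SWT library of the other number, ID3 passed at 0.299 (edgeR adjusted p = 0.0146). That pairing was chosen after seeing the data, and it called 55 of 12399 genes higher and 42 lower. ID1, of the same family, had the smallest p-value of the list, at 0.39 (edgeR adjusted p = 0.759). With the same pairing ID1 passed at 0.387. Without a filter it passed at 0.387 too, where 20 of 17737 genes were called higher and 43 lower. With the length and GC trend removed it passed at 0.453, where 1 of 12399 genes was higher and 0 lower. It did not pass in the other fits that kept all 4 libraries. Leaving out each library gave ID1 values of 0.329 to 0.437. RCOR1 stood at 0.16 (edgeR adjusted p = 0.843), with both SWT libraries above both controls.

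BMP signalling switches on HAND2, PHOX2A and GATA3 in the embryo. It was represented by receptors and SMADs but hardly by the ligands on the list, BMP2, BMP4 and BMP7. Other BMP ligand genes were not looked at. BMP4 and BMP7 had at most 2 counts in a library and BMP2 had 7 to 12. The receptor genes BMPR2 at 102 ± 4.21, ACVR1 at 46.3 ± 2.74 and BMPR1A at 21.0 ± 0.948 CPM were counted, as were SMAD5 at 121 ± 6.46 and SMAD4 at 75.6 ± 1.54 CPM (SD, n = 4). Of 11 tested members 0 passed, 7 stood above 0 and the median was 0.09. Both SWT libraries lay above both controls for 4 of the 11, beside 17.3% of all tested genes, and below both for 0, beside 18.0%. ACVR1 had the smallest p-value, at a log2 fold change of 0.15 (edgeR adjusted p = 0.843).

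**Figure D5:**
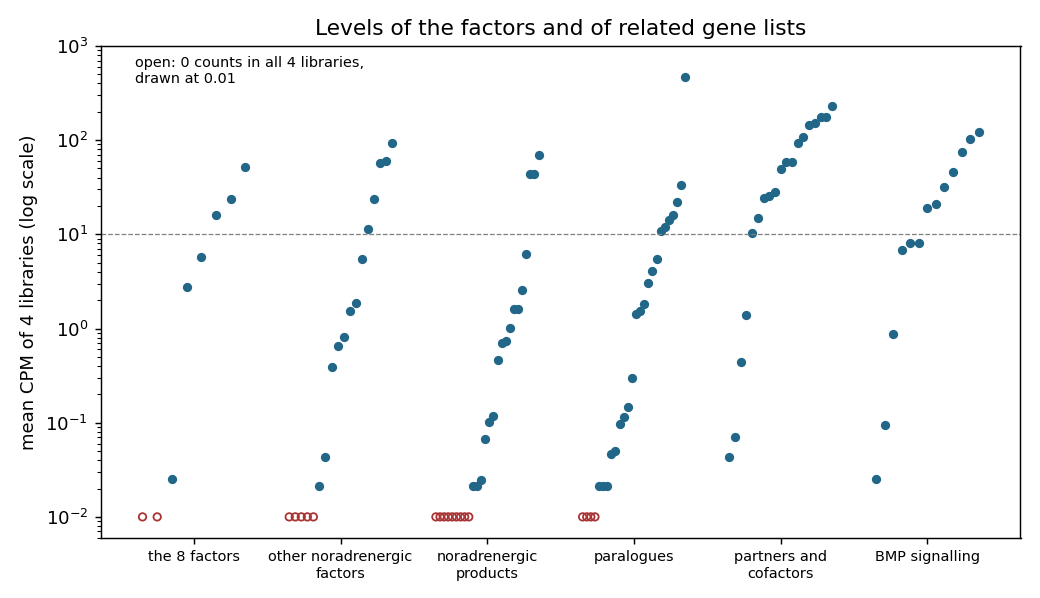
Mean CPM of 4 libraries on a log axis for each gene of the 8 factors and of 5 related lists, sorted within a list; the dashed line marks 10 CPM and open symbols are genes with 0 counts in all libraries. Noradrenergic products hold 9 open symbols and partners and cofactors hold 0.

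The genes whose pattern over the 4 libraries was most like that of each strongly counted factor were found by the root mean square difference in log2 CPM after centring. They were RAVER2 (0.0056) and LAMTOR3 (0.0060) for HAND2, ZNF91 (0.0081) and IL18BP (0.0227) for GATA2, and TNFSF13 (0.0154) and RASSF4 (0.0176) for TBX2. HAND2, which hardly varied, had 1212 genes within 0.05 of its pattern, GATA2 had 22 and TBX2 had 11. With 4 libraries such likeness is a description.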

How the data were processed

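The authors deposited raw counts per gene symbol and a second table of log2 values (17151 genes). The submitters name Trimmomatic 0.36, FastQC 0.11.5, STAR 2.5.3a, HTSeq, DESeq2 and hg38 in their processing notes, per the labels, without saying what each was used for. The library kit was stranded, per the labels' protocols, and neither the annotation nor the strand setting of the counting is stated in these sources. The deposited log2 table lists 6 of the 8 factors, HAND1 included, and holds 1914 genes with fewer than 3 counts in all, so being listed there is no sign of detection. It lists none of the antisense RNAs named here.

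The test was edgeR 4.0.16 on counts, in R 4.3.3 (TMM, filterByExpr with the group and a minimum count of 10, quasi-likelihood F-test, Benjamini-Hochberg adjustment over 12399 genes, threshold 0.05). Standard errors were derived from the F statistic and the fold change, and 95% intervals use t quantiles. The biological coefficient of variation was 4.32%. limma 3.58.1 was run on the deposited log2 values as they stand, and DESeq2 1.42.0 on counts. The fit was tested on simulated counts. Transcript lengths, exons and positions are from GENCODE 29 (GRCh38, the assembly of hg38), neighbours and start regions from RefSeq (GRCh38.p14).

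The factors and gene lists were chosen with earlier results of these data known. All 8 factors are named. List genes are named where they reach 10 CPM in every library, have 0 counts in all 4 or hold the smallest p-value of their list; others named (BMP ligands, low GATA cofactors, heart factors, neighbours, housekeeping genes) were chosen after their values were seen. Some list genes are not reported by name here. Alternatives were DESeq2 size factors, upper-quartile scaling, testing all genes with a count, a filter at a mean count of 50, the replicate block, leaving out each library, DESeq2, limma and CPM from raw totals. Chosen after seeing the data were crossed pairs and an offset that takes out trends of single libraries along GC content and transcript length (97.4% of tested genes have both). Intervals and limits cover counting error only.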

Additional observations from a re-analysis of the deposited data

How the results depend on the processing

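Over 13 alternatives, 61 of 64 recomputed log2 fold changes of the factors kept their direction and 0 factors passed the test in any. The smallest adjusted p was 0.149, for GATA2 without control replicate 2. HAND2 changed sign without SWT replicate 2 (0.045) and with the length and GC trend removed (0.017), and TBX2 without SWT replicate 2 (-0.114). TBX2-AS1 changed sign without control replicate 2 (-0.121). Leaving out each library gave HAND2 values of -0.10 to 0.045, GATA2 0.17 to 0.42, GATA3 -0.38 to -0.16, TBX2 -0.11 to 0.38 and ISL1 -0.38 to -0.27. The same fits gave HAND2-AS1 -0.24 to -0.008, GATA2-AS1 0.048 to 0.40, GATA6 -0.82 to -0.26, NEFL -0.21 to -0.021, ID3 0.094 to 0.51 and RCOR1 0.10 to 0.23. On the deposited log2 values, which shrink weakly counted genes, GATA2 stood at 0.041 and ISL1 at -0.019. The cause of each change was not tested. Over all genes, 0 were higher and 0 lower; without a filter these were 20 and 43, with the crossed pairing 55 and 42, and leaving out each library gave 2 to 106 higher and 15 to 97 lower. With the length and GC trend removed 1 gene was higher, and with the replicate block 1 was lower. Those fits called none of the factors. Same-numbered deviations correlated at -0.264, which gives no sign that the numbers pair the libraries, and the crossed pairing was run for that reason. From raw totals the summed CPM of the factors was 101.8 in SWT replicate 1 and 101.4 in SWT replicate 2, against 101.4 and 101.6. HAND1, PHOX2A and INSM1 were too low to be tested, and GATA3 is left out at a mean count of at least 50.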

Other observations

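Of the factor genes of the developing heart, GATA4 and NKX2-5 varied little over the 4 libraries, unlike the contractile genes. GATA4 stood at 20.5 to 22.9 CPM, with its lowest value in control replicate 2. NKX2-5, the cardiac homeobox gene, had 42, 42, 38 and 44 counts in control replicates 1 and 2 and SWT replicates 1 and 2. TBX20 varied more, with 23, 9, 22 and 13 counts. Over the same libraries the 21 heart muscle genes without these factors summed to 109, 3838, 424 and 137 counts. In control replicate 2, GATA4 and TBX20 were at their lowest, at 20.5 and 0.909 CPM. NKX2-5 was at its highest there, at 4.24 CPM against 3.62 to 3.77 CPM in the other libraries. TBX5 had 5 counts in control replicate 2, a single one in SWT replicate 2 and none elsewhere. HAND2, TBX2 and ISL1, which also act in the heart, were not raised in control replicate 2, at 52.7, 21.8 and 6.16 CPM.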
